A study of Noccaea goesingensis with 12 samples.

Results

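These results concern the genes whose expression differed between nickel-treated and untreated roots of the non-metallicolous ecotype (NTM) of *Noccaea goesingensis*. The NTM plants came from a population on dolomite, and the metallicolous ecotype (TM) used for comparison came from serpentinite. A gene was included when it had a value in both NTM tables, when log2((Ni + 1)/(control + 1)) was at least 1 in either direction, and when the larger of both values was at least 10 FPKM, the fragment count scaled for transcript length and library size. Of the 1131 genes with both values, 55 met this rule, 22 of them with a higher and 33 with a lower value under Ni. These are 4.86% of the 1131 genes in all, 1.95% for the higher direction and 2.92% for the lower. The rule was applied to the Ni and control values themselves, so these numbers describe the choice and support nothing further.

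Root RNA was sequenced in 4 groups, NTM Ni with 3 libraries, NTM control with 3, TM Ni with 2 and TM control with 4, 12 libraries in all, as the labels give them. The methods state the same number of samples for every group. The number in the title of a TM Ni library appears to recur in that of a TM control library. That of the other TM Ni library recurs in the title of an NTM control library. The Ni groups were watered for 3 weeks with nutrient solution that contained nickel sulphate, and the control groups received the same solution without it. According to the labels, RNA of 5 plants was combined in each library, and the substrate named there is not the one given in the methods. The deposited tables hold 1 value for each group, so neither a replicate error nor a test can be given for any gene, and the depth behind a value is not known from them. In the alignment summary of the study a single NTM Ni library was far shallower than the rest, and its part in the group value cannot be separated. The values with and without Ni were normalized separately.

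Each table lists only the genes that the authors' comparison of the ecotypes picked out in that state. Without Ni 4460 genes were listed and with Ni 1944 genes, with 3329 genes listed only without Ni and 813 only with Ni. A gene that responded to Ni in NTM roots but did not differ between the ecotypes in both states is therefore not among the 1131. Less RNA per cell and fewer cells of a type cannot be told apart in such whole-root samples. The labelled tissue was not checked against marker genes, since the tables give *A. thaliana* gene identifiers without names.

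Nickel is a micronutrient that plants need in traces and that becomes toxic in excess. It enters roots in part through transporters of iron and other divalent metals, and an excess disturbs the homeostasis of these metals. Hyperaccumulators such as serpentine populations of *N. goesingensis* move the metal to the shoot and store it in vacuoles. Plants from metal-poor soil meet Ni without a history of exposure. The study nevertheless measured more Ni in shoots than in roots in both ecotypes, by a larger factor in TM plants.

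The files pair no identifier with a name or a function, and of the 29 genes that the study names with an identifier only *ERF5* had a value in both NTM tables. A further 12 of these genes had an NTM value without Ni only, 5 with Ni only and 11 in neither state. The function of the other genes is not described here. Identifiers are printed for *ERF5* and for the genes that the rule places highest and lowest, 2 in each direction. The lowest 2 were both listed at 0 in NTM Ni roots. Other genes are given by their position on TAIR10, the *A. thaliana* genome build named in the submitters' processing notes.

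*ERF5* (AT5G47230, chromosome 5 from 19179939 to 19181129) encodes an ethylene-responsive element binding factor, one of the transcription factors through which ethylene alters gene expression. It stood at 22.1 FPKM in NTM Ni roots, against 8.35 FPKM in NTM control roots, a ratio of 2.65 and a log2 ratio of 1.304. A larger ratio was found for 8 of the 22 genes with higher values. In the TM ecotype *ERF5* stood at 82.1 FPKM with Ni and 60.1 FPKM without, so that the NTM roots remained below the TM roots in both states.

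Among the genes with higher values under Ni, the log2 ratio had a median of 1.18 and a maximum of 3.48, and for 16 of the 22 it was below 1.5. AT5G38760 (chromosome 5 from 15524178 to 15524977) had the highest ratio, with 42.9 FPKM in NTM Ni roots, against 2.93 FPKM in NTM control roots. In TM roots its values lay in the other order, 8.58 FPKM with Ni and 20.2 FPKM without. AT2G20605 (chromosome 2 from 8876490 to 8876732) was next, with 141 FPKM in NTM Ni roots and 24.6 FPKM in NTM control roots. It was listed at 0 in TM roots in both states. Its locus is only 243 bp long, and a value listed at 0 can be a failed estimate. Only 2 other genes of this group had a log2 ratio of 2 or more. A gene on chromosome 3 from 18779723 to 18780412 stood at 36.2 FPKM with Ni and 6.39 FPKM without, and a gene on chromosome 3 from 1781067 to 1782007 at 377 FPKM with Ni and 80.8 FPKM without.

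The most abundant of the 55 genes lies on chromosome 1 from 26718320 to 26718992. It reached 2462 FPKM in NTM Ni roots, against 995 FPKM in NTM control roots, and in TM roots it stood at 287 FPKM with Ni and 334 FPKM without. In all, 6 of the 22 genes had at least 100 FPKM in NTM Ni roots and 1 of them had this level in NTM control roots, beside 233 and 222 of the 1131 genes, and a shift in this direction follows from the choice. The only gene of the *A. thaliana* mitochondrial genome among the 1131, at 190104 to 190553 of that genome, also belonged to this group. It had 88.2 FPKM in NTM Ni roots and 37.8 FPKM in NTM control roots. Its TM values were 12.3 FPKM with Ni and 13.9 FPKM without. The libraries were selected for poly(A) RNA, and the part of that selection in a mitochondrial transcript was not tested.

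**Figure D1:**
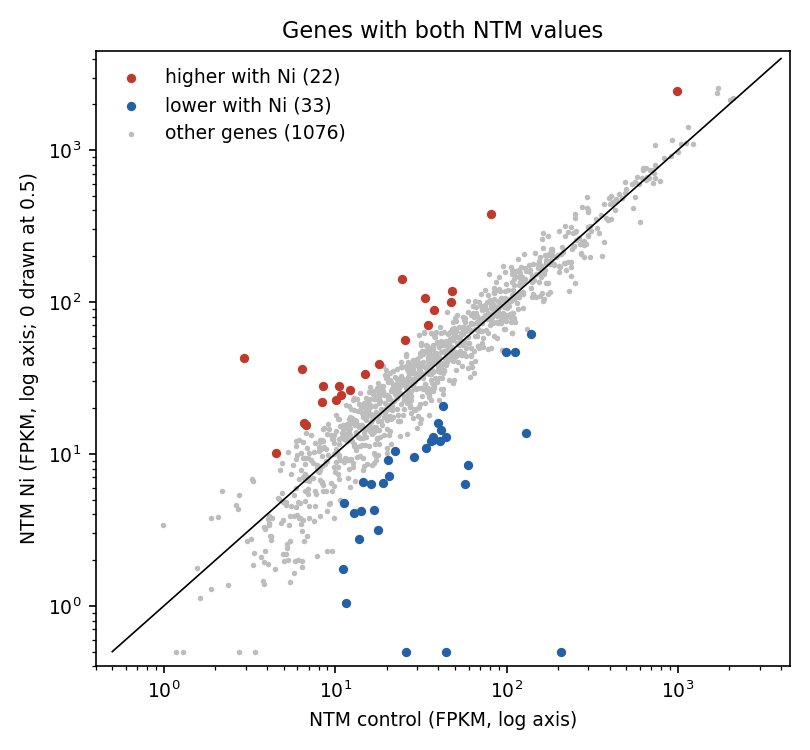
Group values in NTM roots with Ni (vertical axis, FPKM) against those without Ni (horizontal axis, FPKM), both on log axes, for the 1131 genes with both values; each point is 1 gene, the line marks equal values and a value of 0 is drawn at 0.5. The 22 genes with higher and the 33 with lower values under Ni lie on both sides of the line, and 3 of the lower ones are at 0 with Ni.

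Of the 33 genes with lower values under Ni, 3 were listed at 0 in NTM Ni roots, and no ratio is given for them. AT4G16240 (chromosome 4 from 9192336 to 9192568) was listed at 0 in NTM Ni roots, against 207 FPKM in NTM control roots. It was also lower with Ni in TM roots, at 276 FPKM against 1028 FPKM without Ni. AT4G05340 (chromosome 4 from 2725690 to 2726065) was listed at 0 in NTM Ni roots, against 44.2 FPKM in NTM control roots, while in TM roots it stood at 8.67 FPKM with Ni and 4.88 FPKM without. The third of these genes, on chromosome 3 from 23401257 to 23401591, had 25.8 FPKM in NTM control roots and TM values of 94.2 FPKM with Ni and 131 FPKM without. A value of 0 in tables without counts can be a failed estimate.

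In the 30 genes of this group that were above 0 in both NTM groups, the log2 ratio had a median of -1.48, and 6 of them had a ratio of -2 or lower. The lowest was -3.17, for a gene on chromosome 2 from 18189008 to 18191348. That gene stood at 13.7 FPKM in NTM Ni roots and 131 FPKM in NTM control roots. A gene on chromosome 4 from 16379003 to 16379461 followed, with 6.32 FPKM in NTM Ni roots and 57.1 FPKM in NTM control roots. For a gene on chromosome 2 from 8090658 to 8091656 the values were 8.51 FPKM in NTM Ni roots and 59.3 FPKM in NTM control roots. None of the 33 genes had at least 100 FPKM in NTM Ni roots and 4 had this level in NTM control roots, a shift that likewise follows from the choice.

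The same genes were then examined in TM roots, whose libraries are separate from those of the NTM ecotype, although both ecotypes of a state were normalized in the same table. The 22 genes higher in NTM Ni roots had a median of 37.6 FPKM in NTM Ni roots and 13.5 FPKM in NTM control roots. Their medians in TM roots were 7.97 FPKM with Ni and 6.64 FPKM without. The 33 lower genes had a median of 8.51 FPKM in NTM Ni roots and 34.1 FPKM in NTM control roots, while their TM medians were 57.0 FPKM with Ni and 66.9 FPKM without. The median log2 ratio in TM roots was 0.04 in the higher group and 0.04 in the lower group, beside -0.01 over all 1131 genes. Among the 55 genes, 39 changed by less than 0.5 on the log2 scale in TM roots, which is 70.9% of them, beside 84.0% of the 1131 genes. The sign of the change was the same in TM roots for 50.9% of the 55 genes, beside 51.4% of the 1131. Among the 22 higher genes, 3 were listed at 0 in both TM states, beside 7 of the 1131 genes. The TM ratio of 0 of these 3 genes comes only from the 1 added to both values. They are counted among the 39 genes and in the median of the higher group, and as genes without the same sign.

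A log2 ratio of 1 was passed in TM roots as well by 5 of the 55 genes, beside 3.36% of the 1131 genes in either direction. Of these 5 genes, 3 went in the same direction in both ecotypes and 2 in opposite directions. AT4G16240, described above, was lower with Ni in both ecotypes, and so was the gene on chromosome 2 from 8090658 to 8091656, with 47.4 FPKM in TM Ni roots and 103 FPKM in TM control roots. The gene higher in both ecotypes lies on chromosome 1 from 18504802 to 18505597. It had 28.0 FPKM in NTM Ni roots, against 8.49 FPKM in NTM control roots, and 6.71 FPKM in TM Ni roots, against 2.85 FPKM in TM control roots. Applied to TM roots, the rule that chose the 55 genes took 28 genes (2.48% of the 1131), with 19 higher (1.68%) and 9 lower (0.796%) under Ni.

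**Figure D2:**
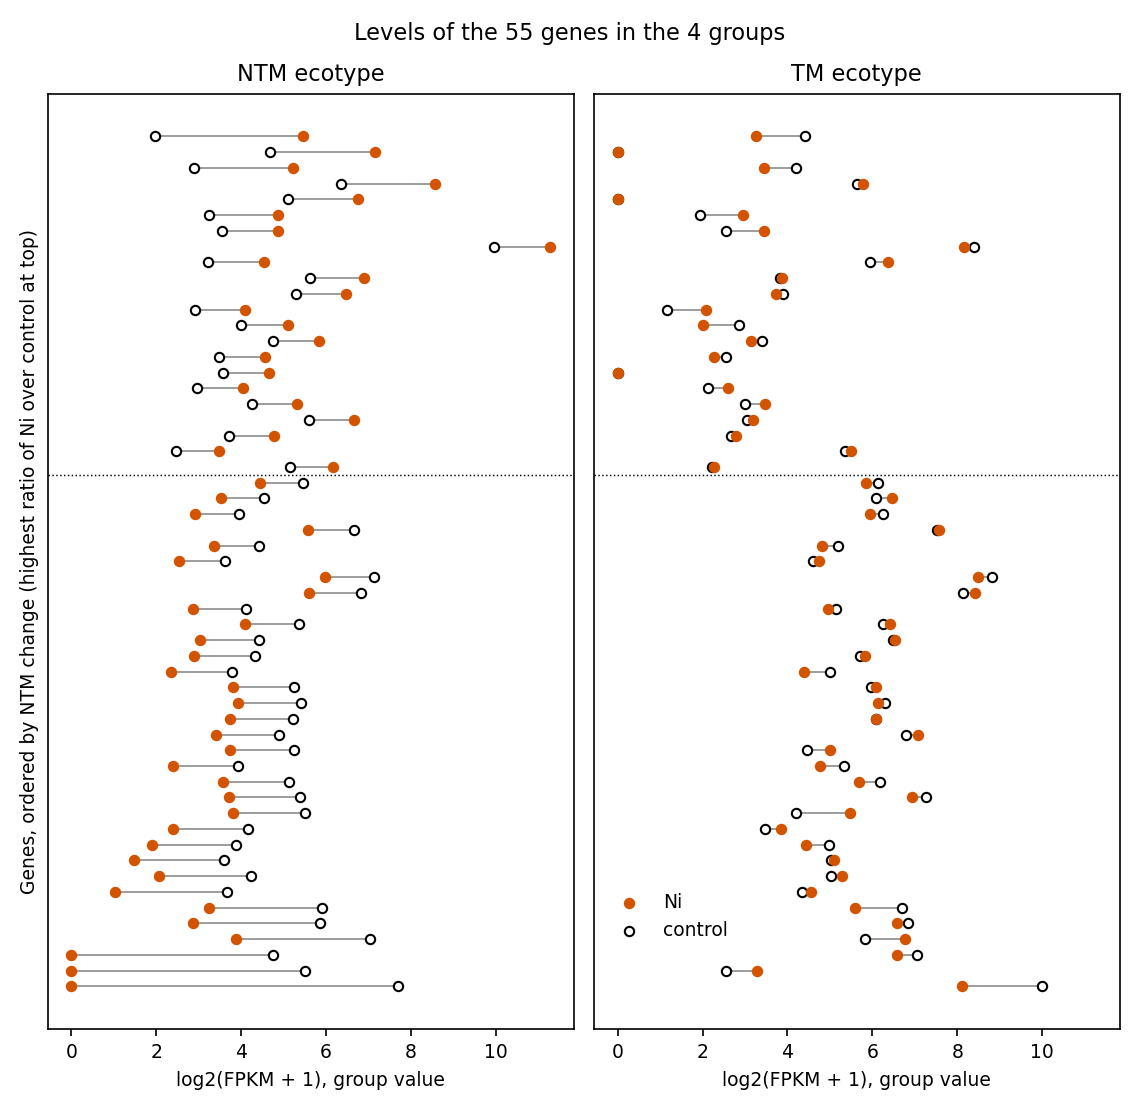
Group values as log2(FPKM + 1) of the 55 genes with Ni (filled) and without (open), in the NTM ecotype (left) and the TM ecotype (right); each row is 1 gene, in the same order in both panels, and the dotted line separates the 22 higher from the 33 lower genes. The lines between both states are long in the NTM ecotype, as the choice requires, and mostly short in the TM ecotype. There 39 of 55 genes changed by less than 0.5, including 3 listed at 0 in both TM states.

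**Figure D3:**
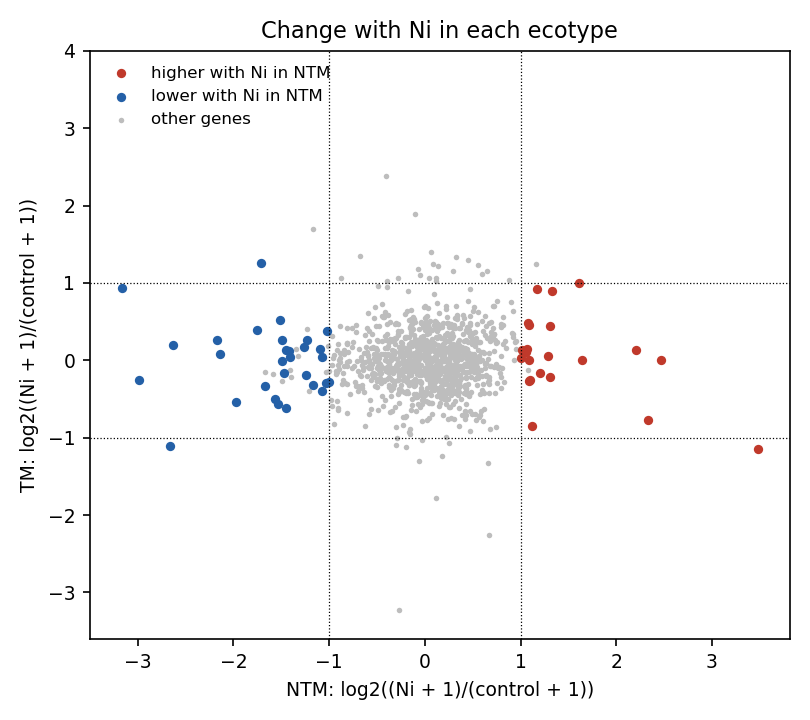
The log2 ratio of Ni over control in NTM roots (horizontal axis) and in TM roots (vertical axis); each point is 1 of the 1124 genes above 0 in both NTM groups, and dotted lines mark 1 and -1. The genes chosen in NTM roots spread around 0 on the TM axis, with medians of 0.04 in either direction. Of the higher genes, 3 lie at 0 on this axis because both TM values were listed at 0.

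The NTM changes were then set beside the level of the TM ecotype. Of the 22 genes higher in NTM Ni roots, 18 already had a higher value in NTM than in TM roots without Ni. Of the 33 lower genes, 28 already had a lower value in NTM than in TM roots without Ni. The NTM value thus moved away from the TM control level in 46 of the 55 genes, or 83.6%, and it did so in 74.4% of all 1131 genes too. The absolute log2 ratio between the ecotypes had a median of 2.53 with Ni and 1.302 without Ni in the 55 genes, and of 1.48 with Ni and 1.16 without Ni in the 1131 genes. It was larger with Ni in 52 of the 55 genes and in 74.8% of the 1131. These ratios contain the NTM values that chose the genes. Each table also requires a difference between the ecotypes, which leaves out genes whose NTM value came close to the TM value in either state, and its part in the pattern was not tested.

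The order of the ecotypes was reversed by Ni in 7 of the 55 genes, 2 of the higher and 5 of the lower group, beside 1.06% of the 1131 genes, which are 12 genes in all. Since every listed gene differed between the ecotypes in both states, a reversal needs a large change in an ecotype. The 55 genes were chosen for a large NTM change, so the choice itself favours a higher share, and its part in the share was not tested. AT5G38760 stood above the TM value with Ni and below it without. The gene on chromosome 2 from 18189008 to 18191348 went the other way, with 13.7 FPKM in NTM roots and 108 FPKM in TM roots under Ni, and 131 FPKM in NTM roots and 56.0 FPKM in TM roots without Ni.

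The loci of the 55 genes had a lower median length than those of all genes in the tables. The median locus length was 927 bp in the higher group and 1324 bp in the lower group, beside 1927 bp over all 1131 genes. A locus shorter than 500 bp was found for 9 of the 55 genes, or 16.4%, and for 2.56% of the 1131. All 6 of the 55 genes that were listed at 0 in any of the 4 groups were among these short loci, and the longest of the 6 was 410 bp. Among the 49 genes above 0 in every group the share was 6.12%, beside 1.61% of the 1115 such genes in all, and the median length was 1244 bp, beside 1938 bp. Length was not itself a term of the rule. FPKM is scaled for transcript length, which is not the locus length given here. The part of length in the minimum of 10 FPKM and in the ratios was not tested.

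**Figure D4:**
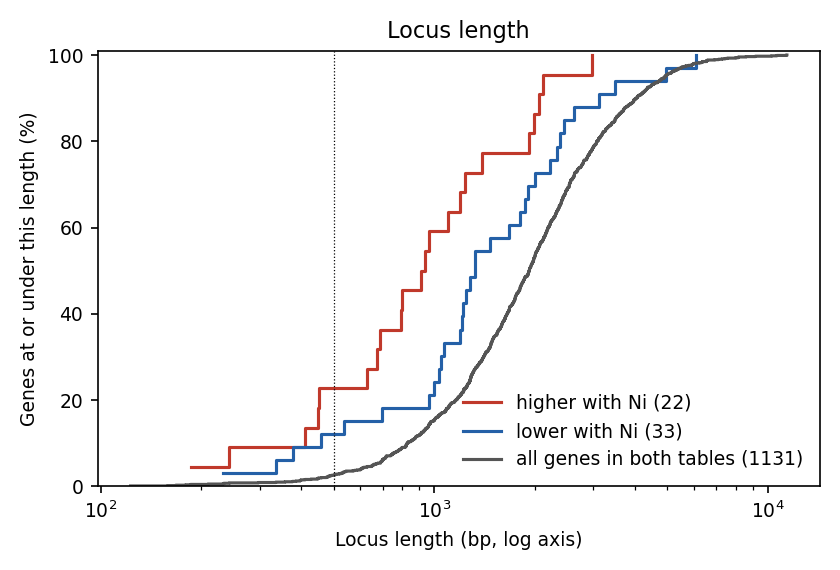
Share of genes (vertical axis, %) with a locus at or under a given length (horizontal axis, bp, log axis) for the 22 higher genes, the 33 lower genes and all 1131 genes; the dotted line marks 500 bp. Both groups lie left of all genes over most of the range, with medians of 927 and 1324 bp beside 1927 bp.

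All positions and distances are those of the *A. thaliana* loci to which the reads were aligned. Where the genes lie in *N. goesingensis* is not known from them. The 55 genes held 15 of the 299 listed genes on chromosome 1 (5.02%), 11 of 179 on chromosome 2 (6.15%) and 13 of 201 on chromosome 3 (6.47%). They held 6 of 173 on chromosome 4 (3.47%) and 9 of 278 on chromosome 5 (3.24%), beside 4.86% of all 1131 genes. All 6 on chromosome 4 and 2 of the 9 on chromosome 5 were lower with Ni, beside 33 of the 55 in all. Of the 55 genes, 2 pairs lay within 25000 bp of each other. The pair on chromosome 1, from 2032338 to 2034018 and from 2034156 to 2035626, is 137 bp apart. The first had 9.59 FPKM in NTM Ni roots and 28.8 FPKM in NTM control roots, and the second 47.1 FPKM in NTM Ni roots and 112 FPKM in NTM control roots. Their log2 ratios were -1.49 and -1.23 in NTM roots and 0.26 in TM roots for each. Whether reads were shared between these neighbours is not known from the tables. The other pair, on chromosome 3 from 18779723 to 18780412 and from 18800380 to 18801587, is 19967 bp apart and went in opposite directions in NTM roots, with log2 ratios of 2.33 and -1.56.

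The share of genes past a log2 ratio of 1 differed with the level. Among genes above 0 in both NTM groups it was 12.8% where the larger NTM value was under 10 FPKM, 7.45% from 10 to 20 FPKM, 6.65% from 20 to 50 FPKM, 2.93% from 50 to 100 FPKM and 3.57% from 100 FPKM. In TM roots the corresponding shares were 3.49%, 2.65%, 4.86%, 2.12% and 2.11%. Under 10 FPKM these were 17 genes, 2 higher and 15 lower with Ni. A further 4 genes under 10 FPKM that were listed at 0 with Ni also passed the ratio, so that the minimum of 10 FPKM left out 21 genes. In the NTM genes under 10 FPKM the median log2 ratio was -0.31, whereas in the other 4 classes it lay between 0.05 and 0.10. The standard deviation of the log2 ratio over genes was 0.50 from 100 FPKM and 0.61 from 10 to 20 FPKM in NTM roots, beside 0.37 and 0.41 in TM roots. The shallow NTM Ni library and the unequal numbers of libraries in the labels stand beside this difference between the ecotypes, and their part in it was not tested.

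**Figure D5:**
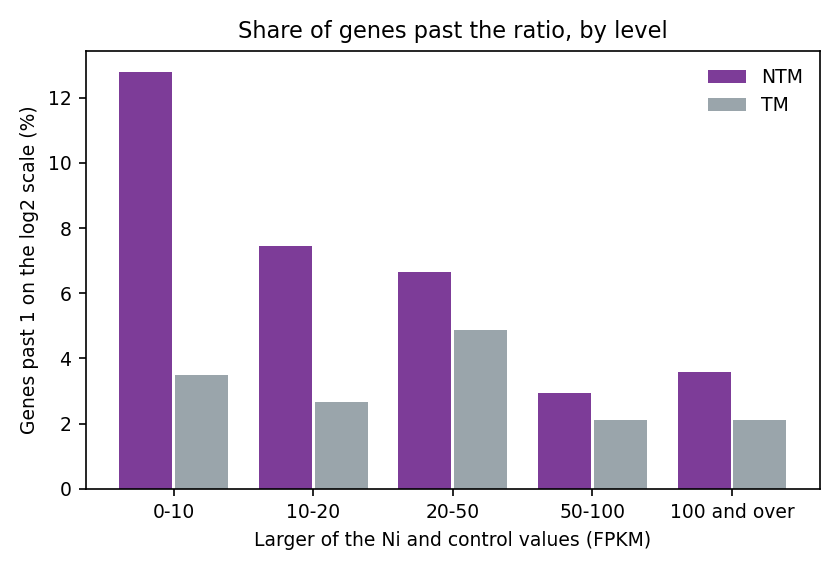
Share of genes (vertical axis, %) with a log2 ratio of at least 1 in either direction, by the larger of the Ni and control values (horizontal axis, FPKM), in NTM and TM roots; genes listed at 0 are left out. The NTM share is 12.8% under 10 FPKM and 3.57% from 100 FPKM, and the TM share lies between 2.11% and 4.86%.

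At the edge of the rule, the gene just inside on the higher side (chromosome 5 from 26596207 to 26598192) had 70.4 FPKM in NTM Ni roots and 34.6 FPKM in NTM control roots. The one just outside (chromosome 2 from 2336814 to 2338902) had 37.9 FPKM in NTM Ni roots and 19.0 FPKM in NTM control roots. On the lower side, the gene just inside (chromosome 3 from 15660859 to 15661925) had 20.8 FPKM in NTM Ni roots and 42.8 FPKM in NTM control roots, and the one just outside (chromosome 1 from 9425460 to 9426886) had 66.3 FPKM in NTM Ni roots and 131.6 FPKM in NTM control roots. With 1 value per group, genes just inside and just outside cannot be told apart.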

How the data were processed

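The authors trimmed reads with cutadapt 1.8.1, aligned them to *A. thaliana* (TAIR10 in the processing notes) with HISAT2 2.1.0 in its default settings, and ran Cuffdiff of Cufflinks 2.2.1. The deposited values are FPKM after geometric normalization, pooled by the authors into 1 value per group, although the column header reads TPM. The deposited comparison tables also hold a log2 ratio and an unadjusted p-value of the authors for TM against NTM, and these were not used. Group values were the same in both kinds of file. Each of the 8 columns of expression values belonged to a group.

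From these values, log2 ratios of Ni over control with a pseudocount of 1 FPKM were computed, without a test. This scale understates changes of low genes. Locus starts, taken as counted from 0 in Cuffdiff output, are printed counting from 1. The members and gene lists were chosen with earlier results of these data known. The rule for named genes took the 15 largest ratios in each direction. Of these, identifiers are printed for 2 in each direction, and neighbours and abundant genes were singled out after their values were seen. Of 14 gene lists, 13 needed gene names and were not run. The list of organelle genomes held 1 gene. The rate at which the rule takes genes in error in these data was not tested. Python 3.11.15, numpy 2.4.6, pandas 2.3.3 and matplotlib 3.10.9 were used.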

Additional observations from a re-analysis of the deposited data

Results flagged for a closer look

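For 2 of the 55 genes the log2 ratio of Ni over control passed 1 in opposite directions in the ecotypes. With 1 value per group this difference was not tested. AT5G38760 had a log2 ratio of 3.48 in NTM roots and -1.15 in TM roots, a difference of 4.63 (NTM minus TM). The gene on chromosome 5 from 24190440 to 24192894 (12.9 FPKM in NTM Ni roots and 44.6 FPKM in NTM control roots, 43.2 FPKM in TM Ni roots and 17.5 FPKM in TM control roots) had log2 ratios of -1.71 in NTM roots and 1.26 in TM roots, a difference of -2.97.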

How the results depend on the processing

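The number of genes depended most on the ratio required. At a log2 ratio of 2, 13 genes remained, 4 higher and 9 lower with Ni, compared with 55, 22 and 33 at a ratio of 1. The 9 lower genes include the 3 that were listed at 0 in NTM Ni roots. A pseudocount of 5 FPKM gave 12 genes in the higher group and a minimum of 1 FPKM gave 52 in the lower group. A pseudocount of 0.1 FPKM raised the genes past the ratio in both ecotypes from 5 to 9. With NTM Ni values divided by the median ratio of 1.04, 58 genes passed, 20 higher and 38 lower, and 53 of the 55 kept their direction and passed. Leaving out genes listed at 0 gave 49 genes, and leaving out loci under 500 bp gave 46. *ERF5* kept a log2 ratio of 1.02 to 1.39 under the other pseudocounts and the scaling. No library could be left out in turn, the shallow one included. No paired analysis was possible because the files hold 1 value for each group of libraries.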
